A study of Pleurotus ostreatus with 32 samples.

Results

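The comparison described here set the lamellae of mature fruiting bodies of the oyster mushroom Pleurotus ostreatus against the cap of young fruiting bodies, over all genes counted. It used 6 of the 32 RNA sequencing libraries of the series, chosen by their labels: 3 of mature lamellae and 3 of young cap. Of 12329 genes in the deposited tables, 10814 had enough counts to be tested. Both groups came from the dikaryotic strain N001 (CECT-20600), grown as spawn culture in bags (18 to 19 °C, humidity of 80 to 85%, 8 h light and 16 h dark), and each library pooled tissue of 3 to 8 fruiting bodies. The other groups used for reference were vegetative mycelium, stage 1 primordia, caps and stipes of stage 3 primordia, young stipe, and mature cap, stipe, skin and a tissue the labels call dedifferentiated cap, all of the same strain and culture. The labels give no age in days for any stage, and do not say whether the lamellae were removed from the young or the mature cap before sampling.

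The cells of a dikaryon hold nuclei of both mating partners side by side. Lamellae, the gills on the underside of the cap, bear the hymenium, a layer of club-shaped basidia in which those nuclei fuse, meiosis follows and the spores form. The young cap is an earlier stage of the organ on which mature lamellae hang. The deposited tables identify genes by number only. Of those identifiers, 0 matched a name in the RefSeq gene list of the strain PC9, which is another assembly. No gene name, product or chromosome position is therefore given, the tissue labels could not be checked against marker genes, and genes are described in groups by how they behaved.

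Total counts were 20.81, 14.89 and 22.76 M (mega) in lamellae replicates 1 to 3, against 22.07, 21.81 and 22.96 M in young cap replicates 1 to 3. The replicates of a group resembled each other across genes, with Spearman correlations of 0.943 to 0.979 among lamellae libraries and 0.937 to 0.989 among young cap libraries, against 0.835 to 0.884 between the groups (10814 genes, which are not independent). Young cap replicate 3 was closer to a stage 3 cap library (0.984) than to either other young cap library (0.960 and 0.937), so counts are also given without it.

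Mature lamellae differed from young cap in 2221 genes, or 20.5% of the genes tested. Of these, 1378 were higher in lamellae (12.7% of the genes tested) and 843 were lower (7.8%). A gene was called at an adjusted p under 0.05 (edgeR quasi-likelihood test, Benjamini-Hochberg adjustment over the 10814 genes) and at least a 2-fold change. Without young cap replicate 3 there were 1994 calls, 1242 higher and 752 lower. In tissue pieces, fewer cells of a type and less RNA per cell cannot be told apart.

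The genes that rose had the larger median change. Their median log2 change was 1.96, a 3.89-fold rise, while the lower genes had a median of -1.58, with young cap 2.99 times lamellae. At least a 4-fold change was reached by 668 of the higher genes (48.5%) and 260 of the lower genes (30.8%). At least 16-fold it was 224 higher genes (16.3%) and 48 lower genes (5.69%), and at least 64-fold 82 and 8. The 3 lamellae libraries did not overlap with the 3 young cap libraries in 1359 of the 1378 higher genes and in 832 of the 843 lower genes. Among all genes tested, the lamellae libraries lay wholly above the young cap libraries in 2560 genes and wholly below them in 2015. At the margins, 191 genes that were higher and 290 that were lower had an adjusted p under 0.05 but less than a 2-fold change (edgeR quasi-likelihood test, Benjamini-Hochberg adjustment). Another 439 genes at least 2-fold higher and 370 genes at least 2-fold lower in lamellae missed the adjusted p.

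**Figure D1:**
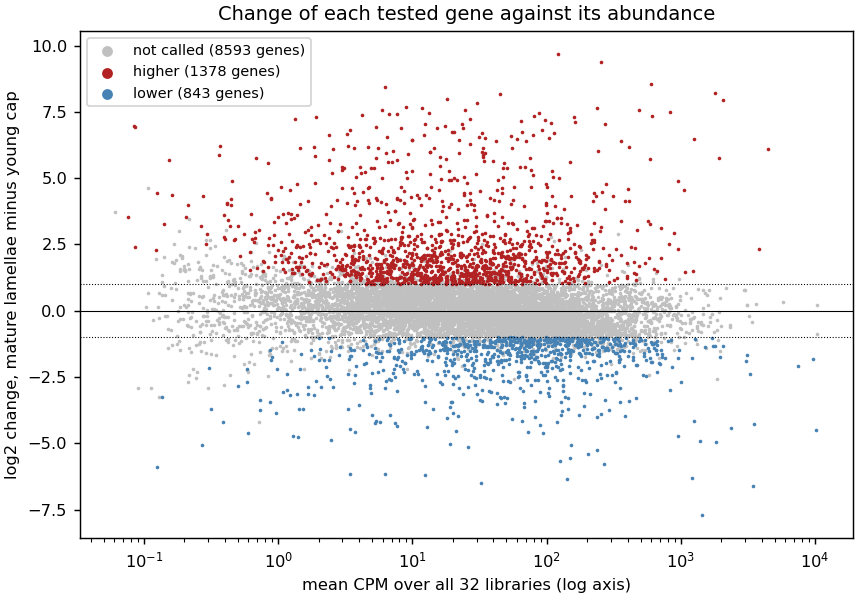
Each point is 1 of the 10814 genes tested, with its mean CPM (counts per mega of scaled counts) over all 32 libraries on a log x axis and its log2 change, mature lamellae minus young cap, on the y axis; dotted lines mark 2-fold. The 1378 genes called higher reach a log2 change of 9.67 and spread over low and middle abundance, while the 843 called lower reach -7.69 and become more frequent toward the abundant end.

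The genes that rose had a low median level in young cap. Their median level was 29.1 CPM in lamellae and 5.86 CPM in young cap, whereas the genes that fell had medians of 22.6 CPM in lamellae and 81.9 CPM in young cap. Over all genes tested the medians were 27.3 CPM in lamellae and 23.8 CPM in young cap. The same libraries chose the genes, so these levels follow in part from the choice. When the tested genes were divided into 4 equal classes by mean level over all 32 libraries, the weakest class held 452 higher and 130 lower genes (16.7% and 4.81% of it), and the strongest class held 218 higher and 349 lower genes (8.06% and 12.9%). Near silence in young cap, a mean under 1 CPM, was seen in 225 of the 1378 higher genes, and 49 of those averaged at least 10 CPM in lamellae. The share of all tested genes at such a level was not counted. In the other direction 74 of the lower genes averaged under 1 CPM in lamellae, 9 of them from at least 10 CPM in young cap. A count of 0 in all 3 young cap libraries with at least 10 counts in every lamellae library occurred in 1 gene, and the opposite case in 0 genes. Few tested genes could show this, as 10 had a count of 0 in all young cap libraries and 11 in all lamellae libraries. The number of genes detected was alike, with 10951, 10867 and 10955 genes having a count in the lamellae libraries against 10910, 10884 and 10951 in the young cap libraries.

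Called genes and the rest were of like length. The length implied by the deposited counts and FPKM values (fragments per kilobase and mega of counts) had a median of 959 bases in the higher genes that had a value, 995 bases in the lower genes and 977 bases in the tested genes that were not called. Such a length was available for 90.0%, 95.7% and 89.4% of these genes.

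The genes that rose took up a large part of the lamellae transcriptome. They held 28.1%, 27.5% and 29.0% of the scaled counts in lamellae replicates 1 to 3, against 2.81%, 3.07% and 2.56% in young cap replicates 1 to 3. These libraries chose the genes, so the contrast is a description. The 10 of them most abundant in lamellae accounted for 10.9%, 10.8% and 12.5% of the lamellae libraries, against 0.0849%, 0.110% and 0.156% of the young cap libraries. Ranked by FPKM, a level per length, 7 of the 10 most abundant lamellae genes were higher than in young cap and 1 was lower, and of the top 100 these were 28 and 12, beside 12.7% and 7.8% of all genes tested. Of the 10 most abundant young cap genes, 8 were lower in lamellae and 0 were higher, and of the top 100 these were 39 and 0. Ranking by a tissue's own level favours calls toward that tissue. In all, 51 genes stood in the top 100 of both tissues.

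The share of the same genes in fruiting tissues other than lamellae and young cap separated mature from immature tissue. The genes that rose held 10.6 ± 1.36% of the counts in mature cap, 12.0 ± 0.231% in mature stipe and 8.79 ± 0.241% in mature skin (mean ± SD, n = 3 each). In stage 1 primordia they held 3.73 ± 0.121%, in stage 3 cap 2.82 ± 0.238%, in stage 3 stipe 2.88 ± 0.841% and in young stipe 3.95 ± 0.363% (n = 3 each). The ranges of the 3 mature tissues (8.63% to 12.3%) thus lay above those of the primordia and the young stipe (2.13% to 4.37%). Vegetative mycelium, at 9.85 ± 1.58%, lay among the mature tissues, and the 2 libraries of dedifferentiated cap held 15.0% and 13.6%.

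The genes that fell showed the opposite layout. They held 6.14%, 5.76% and 6.39% of the lamellae libraries, against 21.5%, 21.7% and 21.6% of the young cap libraries. In the groups not used to choose them, they held 19.1% to 23.5% of the primordium and young stipe libraries and 13.6% to 16.9% of the mature cap, stipe and skin libraries. In vegetative mycelium they held 9.42% to 12.1% and in dedifferentiated cap 7.55% and 7.53%.

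**Figure D2:**
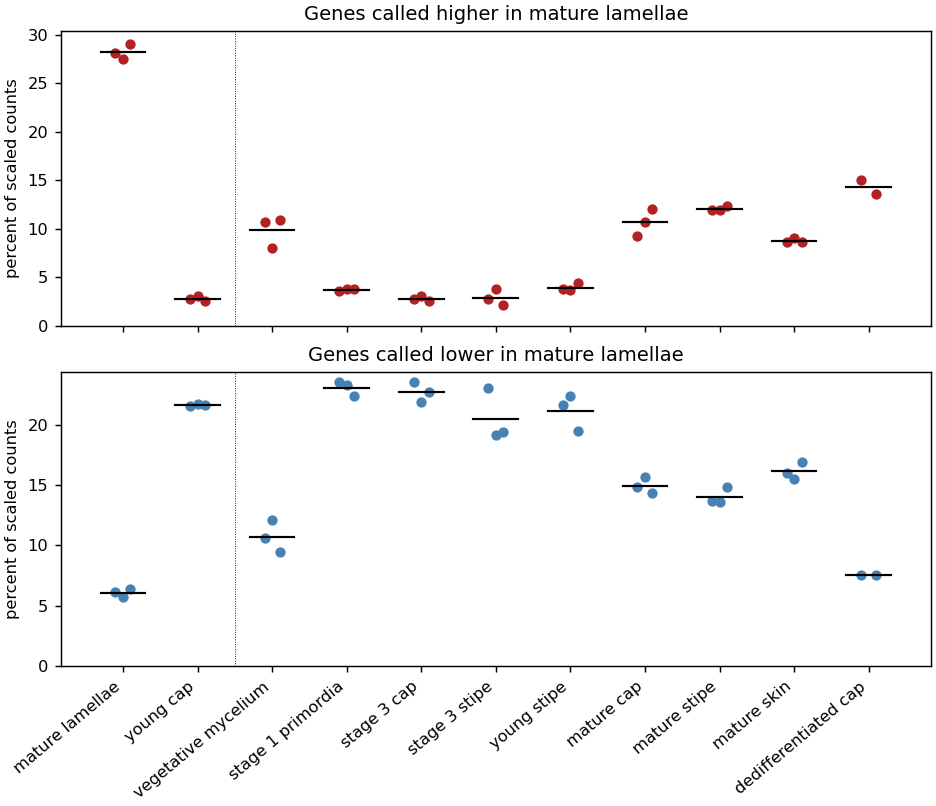
Points are libraries, bars are group means, and the y axis is the percent of a library's scaled counts held by the 1378 genes called higher (upper panel) or the 843 called lower (lower panel) in mature lamellae against young cap. The first 2 groups chose the genes; among the others the higher genes take 8.63% to 12.3% in mature cap, stipe and skin and 2.13% to 4.37% in primordia and young stipe.

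Whether the same genes changed was also examined in pairs of tissues that include neither lamellae nor young cap. All comparisons came from the fit over all 32 libraries, so they shared its filter, scaling and estimate of spread. Mature stipe differed from young stipe in 2245 genes that were higher (20.8% of the genes tested) and 1448 that were lower (13.4%). Of the 1378 genes higher in lamellae, 689 were also higher in mature stipe (50.0%) and 39 were lower (2.83%). Seen from the stipe list, these were 30.7% of the genes higher in mature stipe. Of the 843 genes lower in lamellae, 320 were also lower in mature stipe (38.0%) and 79 were higher (9.37%), and those 320 were 22.1% of the stipe's lower list. The median log2 change in the stipe was 1.22 for the genes higher in lamellae and -0.79 for those lower in lamellae, beside 0.10 for all genes tested.

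Mature cap against stage 3 cap gave a similar split. That comparison called 2491 genes higher (23% of the genes tested) and 2256 lower (20.9%). It held 672 of the genes higher in lamellae among its higher calls (48.8%) and 113 among its lower calls (8.2%), with 459 of the genes lower in lamellae among its lower calls (54.4%) and 88 among its higher calls (10.4%). The 672 shared genes made up 27.0% of the cap's higher list, and the 459 made up 20.3% of its lower list. Mature skin against stage 3 cap, which uses the same stage 3 libraries, called 2043 genes higher (18.9%) and 1676 lower (15.5%). Of the genes higher in lamellae it called 641 higher and 88 lower, and of the genes lower in lamellae it called 356 lower and 91 higher. The 641 were 31.4% of the skin's higher list and the 356 were 21.2% of its lower list.

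The calls in these other tissues were then counted by the size of the change in lamellae. Among genes 2 to 4-fold higher in lamellae, 392 of 710 were also higher in mature stipe (55.2%), among those 4 to 16-fold higher 227 of 444 (51.1%), and among those at least 16-fold higher 70 of 224 (31.2%). In mature cap against stage 3 cap the same classes gave 55.8%, 48.6% and 26.8%, and in mature skin against stage 3 cap 52.8%, 46.4% and 26.8%, beside 23% and 18.9% for all genes tested. The median log2 changes of these classes were 1.24, 1.37 and 0.846 in the stipe, so there the middle class had the largest. They were 1.26, 1.17 and 0.423 in the cap, and 1.17, 1.13 and 0.395 in the skin. The genes that fell, counted in the same classes, gave no steady order. Of the 583 genes 2 to 4-fold lower in lamellae, 54.4% were also lower in mature cap than in stage 3 cap, as were 48.6% of the 212 genes 4 to 16-fold lower and 81.2% (39) of the 48 genes at least 16-fold lower. In the stipe these classes gave 42.0%, 24.1% and 50.0%, and in the skin 45.6%, 32.1% and 45.8%, so the middle class was the lowest in each tissue. Differences between these shares were not tested.

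**Figure D3:**
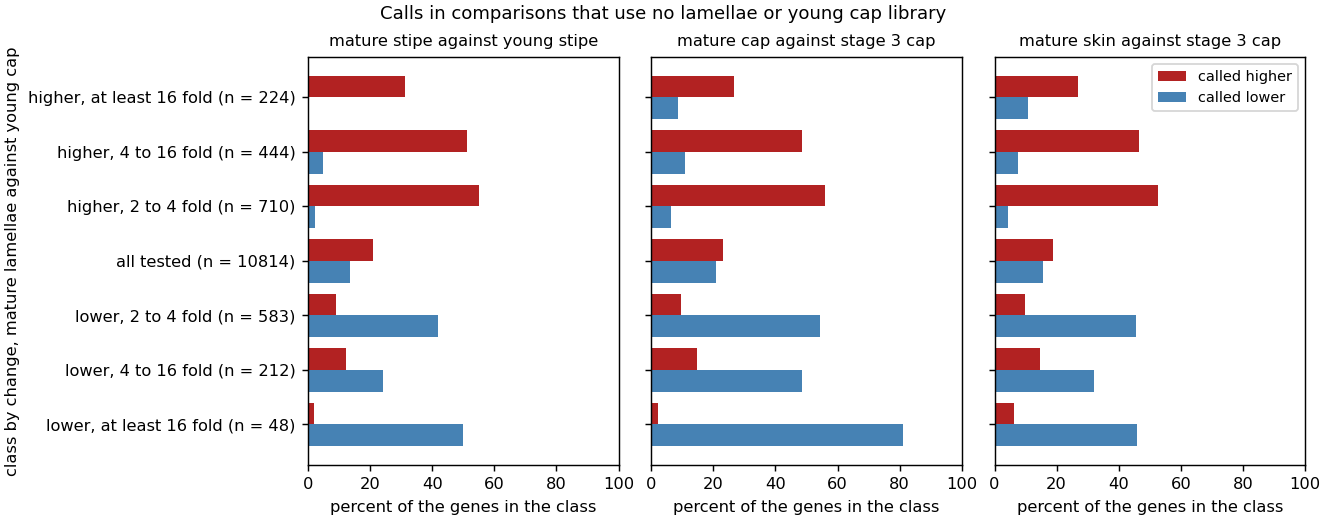
Bars give the percent of genes called higher (red) and lower (blue) in 3 comparisons of groups other than lamellae and young cap, all from the shared fit. Genes are in classes by their change in mature lamellae against young cap. In the stipe 55.2% of the genes 2 to 4-fold higher are also called higher and 31.2% of those at least 16-fold higher, while among the genes that fell the middle class has the lowest percent also called lower (24.1% in the stipe, 48.6% in mature cap against stage 3 cap and 32.1% in skin).

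The levels of these classes in each group were compared as a description. The 224 genes at least 16-fold higher had a median of 110 CPM in lamellae and 2.12 CPM in young cap. In the groups not used to choose them their medians ran from 1.54 CPM in stage 1 primordia to 4.14 CPM in mature stipe, with 2.95 CPM in mature cap and 2.92 CPM in mature skin. Lamellae had the highest mean of the 11 groups for 188 of the 224, and a mean at least 4 times that of every other group for 151. Lamellae had the highest mean for 985 of the 10814 genes tested, but genes picked for a 16-fold rise had to be high in lamellae, so nothing is read from the 188. The smaller rises were spread differently. For the 710 genes 2 to 4-fold higher, the median was 21.6 CPM in lamellae and 8.34 CPM in young cap, beside 24.8 CPM in dedifferentiated cap, 28.0 CPM in mycelium and 20.0 CPM in mature stipe. Over all 1378 higher genes, 546 had their highest mean in lamellae, 306 in dedifferentiated cap, 277 in mycelium and 147 in mature stipe. Over the 10814 genes tested these numbers were 985, 1823, 2346 and 1115, so mycelium and mature stipe took shares close to those over all genes, and the count for lamellae follows in part from how the genes were chosen.

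The genes that fell furthest had their highest medians in young cap, which was used to choose them, and in stage 3 cap. The 48 genes at least 16-fold lower had a median of 2.55 CPM in lamellae and 91.0 CPM in young cap. Their median was 74.0 CPM in stage 3 cap, 21.2 CPM in stage 1 primordia, 16.0 CPM in stage 3 stipe and 12.9 CPM in young stipe. Among mature tissues it was 34.5 CPM in skin, 3.28 CPM in cap and 3.83 CPM in stipe. In mycelium it was 5.95 CPM and in dedifferentiated cap 6.2 CPM.

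Genes that differ between mycelium and the first fruiting stage were followed into the lamellae. Stage 1 primordia against vegetative mycelium called 2087 genes higher (19.3% of the genes tested) and 3017 lower (27.9%). Of the 3017 genes lower in primordia than in mycelium, 726 were higher in lamellae than in young cap (24.1%) and 116 were lower (3.84%), beside 12.7% and 7.8% of all genes tested, and their median log2 change was 0.58. Of the 2087 genes higher in primordia, 135 were higher (6.47%) and 416 lower (19.9%) in lamellae, with a median of -0.57. The 726 and the 416 genes made up 52.7% of the genes that rose and 49.3% of those that fell.

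Genes that already set cap and stipe apart in primordia were followed as well. Stage 3 cap exceeded stage 3 stipe in 300 genes (2.77% of the genes tested) and fell short of it in 291 (2.69%). Of the 300 cap-biased genes, 110 were lower in lamellae than in young cap (36.7%) and 48 were higher (16.0%), with a median log2 change of -0.58. Of the 291 stipe-biased genes, 42 were lower (14.4%) and 48 higher (16.5%), with a median of -0.01. Over all genes tested, 7.8% were lower and 12.7% higher, and the median was 0.01.

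The change in lamellae was next tested directly against the changes of the other mature tissues. The log2 change from young cap to lamellae differed from the change from young to mature stipe in 1933 genes (17.9% of the genes tested; edgeR quasi-likelihood test on the difference, with the same thresholds). It was the larger in 855 genes (7.91%) and the smaller in 1078 (9.97%). This split depended on the scaling. Scaled by library size alone, where the median difference of all genes was 0.29 on the log2 scale instead of -0.07, there were 1270 larger and 746 smaller. With just these 4 groups in the fit there were 1370 larger and 1231 smaller.

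Set against the mature cap, the lamellae change differed in 2948 genes (27.3%), and against the mature skin in 2055 (19%). Since the young cap is common to both changes, these are the direct tests of lamellae against mature cap and mature skin. In lamellae 1524 genes were higher than in mature cap (14.1%) and 1424 lower (13.2%), and, scaled by library size alone, where the median log2 change of all genes was 0.28 instead of 0.01, 2172 were higher and 952 lower. Against skin 996 genes were higher (9.21%) and 1059 lower (9.79%). The 2948 calls against mature cap exceed the 2221 against young cap, a difference in count that was not itself tested.

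By median over all pairs, the lamellae libraries resembled young cap most closely, though not each library did. The Spearman correlation of a lamellae library with a library of another group had a median of 0.868 for young cap (range 0.835 to 0.884, 9 pairs), 0.862 for young stipe, 0.853 for stage 3 cap, 0.846 for mature skin and 0.844 for stage 1 primordia. It was 0.834 for stage 3 stipe (0.741 to 0.88), 0.830 for mature cap (0.807 to 0.877) and 0.806 for mature stipe (0.793 to 0.840). For dedifferentiated cap it was 0.755 and for mycelium 0.662. Lamellae replicate 2 taken alone had a higher median with mature skin (0.87) than with young cap (0.851). The ranges for young cap, mature skin and mature cap overlapped, so the order of these neighbours was not separated by the spread of the pairs. The range for mature stipe met that for young cap only between 0.835 and 0.840. These pairs share libraries and depth, and the values describe 10814 genes that are not independent.

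**Figure D4:**
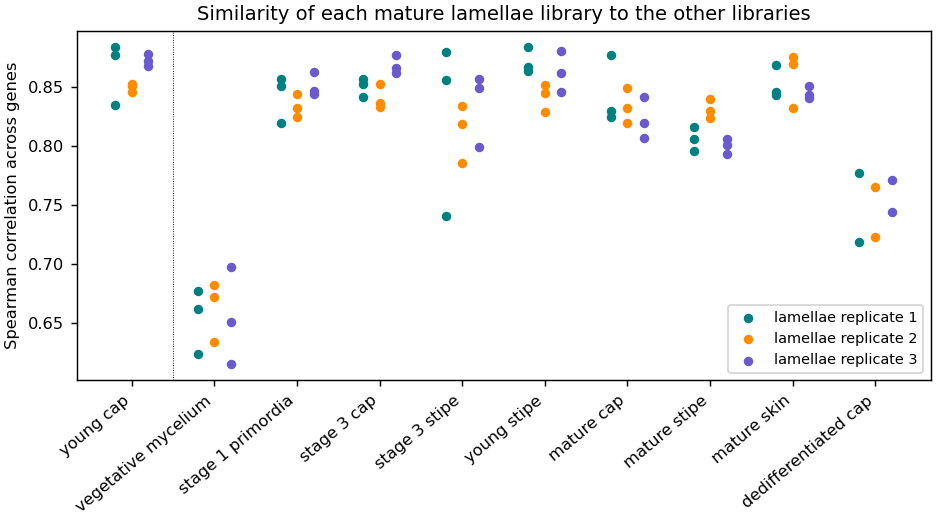
Each point is the Spearman correlation across 10814 genes between 1 mature lamellae library (colour) and 1 library of the group on the x axis. Young cap has the highest group median (0.868) and mycelium the lowest (0.662), with overlapping ranges for young cap (0.835 to 0.884), mature skin (0.832 to 0.876) and mature cap (0.807 to 0.877).

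As a measure of size and of abundance, 2 genes that rose and 2 that fell are given by number. Each was called, with whole-number counts and no overlap in the 6 libraries; in each direction, the first had the largest fold change among genes that averaged 10 or more counts in lamellae and in young cap alike, and the second the largest difference in mean CPM. Because they were picked by this contrast, their tests describe the choice.

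Gene 4207 had the largest rise. It had 775, 1636 and 1418 CPM in lamellae replicates 1 to 3, against 1.29, 0.996 and 2.39 CPM in young cap replicates 1 to 3. The groups lay far apart, and lamellae replicate 1 was the lowest of its group. The log2 change was 9.67 ± 1.28 (SE; edgeR, Benjamini-Hochberg adjusted p = 2.62e-06, n = 3 each). Outside lamellae the highest libraries were mature stipe replicates 1 and 2, with 31.5 and 11.5 CPM, while replicate 3 had 0.581 CPM. In the deposited FPKM values, which are per length, it averaged 2897 ± 1017 FPKM in lamellae and 3.58 ± 1.67 FPKM in young cap (SD, n = 3 each). Its rise was larger than its rise in the stipe by 4.68 ± 1.44 on the log2 scale (edgeR test of the difference, Benjamini-Hochberg adjusted p = 0.0242). Across the 32 libraries, 70 other tested genes had a Pearson correlation of at least 0.9 with it on log2(CPM + 1), the closest at 0.989. For genes 6067, 12063 and 8727 that number was 18, 2 and 10. Gene 4207 was picked for its rise in lamellae, and genes high in the same libraries correlate with it, so nothing is read from the 70.

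Gene 6067 gained most counts. It had 13101, 24961 and 17207 CPM in lamellae replicates 1 to 3, against 35.7, 64.5 and 88.6 CPM in young cap replicates 1 to 3, and it alone took 1.51%, 2.59% and 1.89% of the lamellae counts. Every lamellae library lay above every young cap library. Its log2 change was 8.19 ± 1.64 (SE; edgeR, Benjamini-Hochberg adjusted p = 0.000489, n = 3 each). Among the groups not used to choose it, the level was uneven within mature cap, with 216, 8.11 and 3.08 CPM, and within mature stipe, with 387, 221 and 20.6 CPM. In mature skin it had 8.58, 5.74 and 5.33 CPM. Its FPKM averaged 9175 ± 3001 in lamellae and 31.3 ± 13.2 in young cap (SD, n = 3 each). The lamellae change exceeded the stipe change by 6.62 ± 1.86 on the log2 scale (edgeR test of the difference, Benjamini-Hochberg adjusted p = 0.0138).

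Gene 12063 had the largest fall. It had 24.8, 2.85 and 1.64 CPM in lamellae replicates 1 to 3, against 700, 2137 and 3263 CPM in young cap replicates 1 to 3. Both groups spread widely without overlapping, and lamellae replicate 1 was the highest of its group. The log2 change was -7.69 ± 1.26 (SE; edgeR, Benjamini-Hochberg adjusted p = 4.44e-05, n = 3 each), and -9.83 without lamellae replicate 1. The same gene was lower in mature stipe than in young stipe by -6.69 ± 1.2 (edgeR, Benjamini-Hochberg adjusted p = 9.57e-05) and in mature cap than in stage 3 cap by -6.05 ± 1.17 (adjusted p = 0.000138 in edgeR). Mature skin kept a higher level, with 482, 122 and 377 CPM, and mycelium had 1.3, 15.4 and 2.78 CPM. The lamellae and stipe changes differed by -1.0 ± 1.34 on the log2 scale, which missed the threshold (edgeR, Benjamini-Hochberg adjusted p = 0.659).

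Gene 8727 lost most counts. It had 807, 1317 and 1382 CPM in lamellae replicates 1 to 3, against 6347, 3510 and 5011 CPM in young cap replicates 1 to 3. Its log2 change was -2.08 ± 0.56 (SE; edgeR, Benjamini-Hochberg adjusted p = 0.00714, n = 3 each). The other mature tissues held more than young cap, with 11888, 17525 and 23876 CPM in mature cap, and 12761, 12691 and 17961 CPM in mature stipe. It was higher in mature cap than in stage 3 cap by 2.58 ± 0.57 on the log2 scale (edgeR, Benjamini-Hochberg adjusted p = 0.00059). Mature stipe exceeded young stipe by 0.76 ± 0.54, which did not pass (edgeR, Benjamini-Hochberg adjusted p = 0.27), and the lamellae and stipe changes differed by -2.85 ± 0.78 (edgeR test of the difference, Benjamini-Hochberg adjusted p = 0.0114). Its counts held a fraction in 1 of the 32 libraries.

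**Figure D5:**
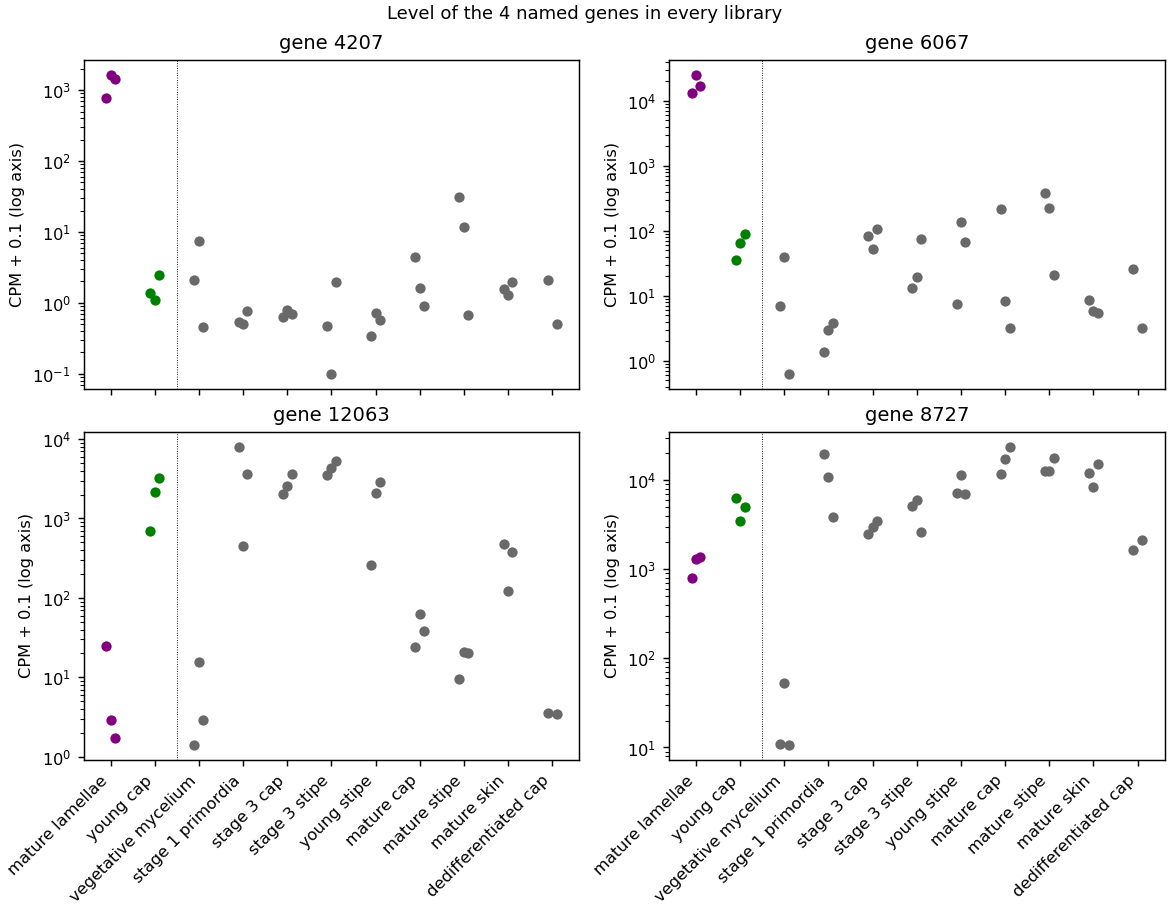
Points are libraries, with the group on the x axis and CPM + 0.1 on a log y axis, 1 panel for each of the 4 named genes; purple marks mature lamellae and green young cap. Genes 4207 and 6067 are high in lamellae (775 to 1636 and 13101 to 24961 CPM); gene 12063 is low in lamellae, mature cap, mature stipe, dedifferentiated cap and mycelium, and the lamellae libraries of gene 8727 (807 to 1382 CPM) lie below every primordium, young and other mature library.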

How the data were processed

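Per the labels' protocols, poly(A)-captured RNA was made into stranded libraries that were read from both ends over 150 bases. The submitters' processing notes name STAR, featureCounts, R 3.0.2, edgeR 3.4.2 and limma 3.18.13. Beyond the name PleosPC15, which the deposited FPKM values carry, the sources used here do not give the genome build. The authors deposited expected counts per gene and library, in which 95.2% of non-zero entries were whole (tolerance 1e-06) and the rest fractions in steps of 0.01. Counts were rounded here. The authors also deposited log2 values, named FPKM, for 10755 genes, with a lowest value of -8.87; they were turned back to FPKM. Genes whose reads may be shared with a copy carry fractions (2836 genes, 276 of the higher and 261 of the lower calls).

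Tests used edgeR 4.0.16 in R 4.3.3: filterByExpr, TMM scaling and a mean per group over all 32 libraries in 11 groups (21 residual degrees of freedom, robust quasi-likelihood). Groups and replicate numbers come from the titles. CPM are rounded counts per mega of TMM-scaled totals, and the filter kept 99.9962% of the counts in the library where it kept least. Sizes of change are relative to TMM, under which the median gene changed by 0.01 on the log2 scale. The members and lists were chosen with earlier results of these data known. Named genes follow the rule given with them. The SE of a log2 change was derived from its test, as the absolute change divided by the square root of the quasi-likelihood F statistic. Replicate pairs within a group differed by a chi-square of at least 84.2 per degree of freedom over genes, so no pair was taken as the same library read again. That the pools are independent was not tested and rests on the labels, which call the replicates biological pools. Each library counts once. Alternatives were other scalings, DESeq2 1.42.0, limma 3.58.1 on log2(FPKM + 1), no filter, other fold thresholds, equal depth, the replicate block and leaving out each library.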

Additional observations from a re-analysis of the deposited data

Results flagged for a closer look

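The change from young cap to mature lamellae differed from the change from young to mature stipe in 1933 genes, or 17.9% of the genes tested. The difference itself was tested (edgeR quasi-likelihood test, Benjamini-Hochberg adjustment). Of the 4 named genes, 3 were among the 1933: gene 4207 with a difference of 4.68, gene 6067 with 6.62 and gene 8727 with -2.85. These values are on the log2 scale, as the lamellae change minus the stipe change. The named genes were picked by the lamellae change, which is part of this difference, so a large difference was favoured by the choice. For gene 4207 the stipe change itself was 4.99 ± 1.11 (SE; edgeR, Benjamini-Hochberg adjusted p = 0.00086), with mature stipe replicates at 31.5, 11.5 and 0.581 CPM.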

How the results depend on the processing

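Apart from the 4-fold threshold, every alternative kept the total, higher and lower counts of lamellae against young cap within 1.5 times. A 4-fold threshold gave 928 genes (668 higher, 260 lower) for lamellae against young cap, 1088 (453 larger, 635 smaller) for the lamellae change against the stipe change, 1156 (666 and 490) against mature cap and 876 (455 and 421) against mature skin, fewer by construction. With just the 4 compared groups in the fit, genes with a larger lamellae than stipe change numbered 1370. Leaving out 1 library gave 1878 to 2031 genes against young cap (1116 to 1299 higher, 656 to 799 lower), 1429 to 1919 for the difference from the stipe change (611 to 853 and 813 to 1066), 2352 to 2784 against mature cap (1248 to 1477 and 1090 to 1429) and 1609 to 1980 against mature skin (792 to 936 and 787 to 1044). A lone replicate was never left in a group. DESeq2 called 2421 genes against young cap, 2188 of them shared with edgeR, each in the same direction. Thinned to equal depth, 2185 genes were called, and without genes with fractional counts 1697. The same-numbered lamellae and young cap libraries deviated from their group means with correlations of 0.349, -0.285 and 0.235, so the numbers were not read as pairs; the replicate block gave 2174 genes against young cap (1344 higher, 830 lower). The 4 named genes kept their direction and their call in every alternative of lamellae against young cap in which they were followed. They were not followed in the one without fractional counts. The counts of list members, with the lists held fixed, were taken again in a step chosen after seeing the data, under the alternatives of lamellae against young cap other than the one without fractional counts; of those run, the 4-fold threshold moved counts by more than 1.5 times. The libraries that define the lists were not left out in turn. Depth limits what a count of 0 shows: thinned to the lowest total, 1302 genes had no count in the lamellae libraries and 1319 in the young cap libraries.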
